A study of Rattus norvegicus with 6 samples.

Results

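DNA damage checkpoint and repair genes were examined in rat RA-FLS, the fibroblast-like synoviocytes that line the joint and that invade cartilage in rheumatoid arthritis. The 35 genes were listed by name and sorted by role into homologous recombination, Fanconi anemia, checkpoint and break sensing, mismatch repair and end joining. Of these, 34 were among the 34156 genes of the count table, and Chek1 was not analysed here. The purchased rat cells, wild type by their labels, were cultured with 10 ng/mL TNF-α in all 6 libraries. Of these, 3 libraries came from cells given TNF-α alone (TNF-α group) and 3 from cells that also received 80 μmol/L EMO (emodin, a plant anthraquinone; TNF-α+EMO group). The labels give a time of day 5, whereas the study's methods give an incubation counted in hours, so the exposure time is not certain. No library of cells without TNF-α was used here. Differences are therefore those of EMO on top of TNF-α. The study's methods call the 3 libraries of a group biological replicates, and the labels do not say whether they came from separate cultures or animals. The p-values measure the spread between these libraries.

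Cells repair a DNA double-strand break along several routes. Homologous recombination trims the broken ends and copies the lost sequence from the sister chromatid, so it works mainly in S and G2 phase, whereas end joining ligates the ends directly and can act throughout the cell cycle. The Fanconi anemia pathway removes crosslinks between DNA strands, mismatch repair corrects replication errors, and the kinases Atm and Atr report breaks and stalled forks to the cell cycle machinery. Many genes of recombination and of the Fanconi anemia pathway are known to be transcribed mostly in cells that are about to replicate, often through E2F factors.

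The libraries held 16813322 to 17794455 counts, and the common biological coefficient of variation was 0.121. Known markers were read as a check of the labelled cell type. Among fibroblast markers, Col1a1, Vim and Pdgfra had mean normalized counts of 111181, 61464 and 20844 in the TNF-α group, whereas Thy1, Prg4 and Pdpn, which mark synovial fibroblasts, had means of 5.21, 3.58 and 0.327 there and 0 with EMO. The summed level of the 10 fibroblast markers with a row ranged from 197611 to 217918 normalized counts in the TNF-α group and from 35117 to 37788 in the TNF-α+EMO group. Of the 7 tested, 6 were lower with EMO and 1 was higher. The 8 macrophage markers summed to 1203 to 1306 and 734 to 804, nearly all of it Cd14 (means of 1093 and 510) and Cd68 (means of 153 and 256). Cd14 was thus lower and Cd68 higher with EMO. Csf1r, Lyz2, Aif1, Adgre1 and Ptprc had means of 4.23 or less, and Cd163 was at 0 in every library. The epithelial markers summed to 9950 to 10806 and 1968 to 2304, nearly all of it Krt8 (means of 10389 and 2140), with Krt19, Cdh1 and Krt18 at means of 5.2 or less and Epcam at 0. The endothelial ones summed to 69.2 to 76.5 and 13.2 to 21.7 with Kdr at 0, and the T cell ones to at most 4.90 with Cd3d at 0. The part of these marker differences in the results was not tested. In bulk RNA, fewer cells of a kind and less RNA per cell cannot be told apart.

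Most of the 34 listed genes analysed (the members) had lower mRNA levels with EMO. Class medians were lowest for the recombination and Fanconi anemia members. Lig4, a ligase of end joining, was the one member that rose past the fold threshold. Tests were made with edgeR (quasi-likelihood), and p was adjusted by Benjamini and Hochberg's method across the 13614 genes tested. SE denotes the standard error of such a fold change on the log2 scale. In all, 28 of the 34 members were lower in the TNF-α+EMO group at an adjusted p under 0.05 (82.4%), where 41.4% of all genes tested were lower. Lig4 and Rbbp8 were the 2 members that were higher, where 39.4% of all genes were. Rad50, Nbn, Pms2 and Xrcc6 did not pass the test. With a log2 fold change beyond 1 in size as well, 22 members were lower (64.7%; 27.8% of all genes) and 1 was higher (2.94%; 19.5% of all genes). A log2 fold change below -2 was reached by 13 members (38.2%; 16.6% of all genes). In 28 members every TNF-α+EMO library lay below every TNF-α library, as it did for 42.5% of all genes. The median log2 fold change over the members was -1.43, with a range from -5.77 to 1.90, against -0.01 over all genes tested. Of the members, 30 had at least 10 counts in all 6 libraries. Exo1 and Rad54b had that many in the TNF-α libraries alone, and Fanca and Polq in those and 1 TNF-α+EMO library.

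**Figure D1:**
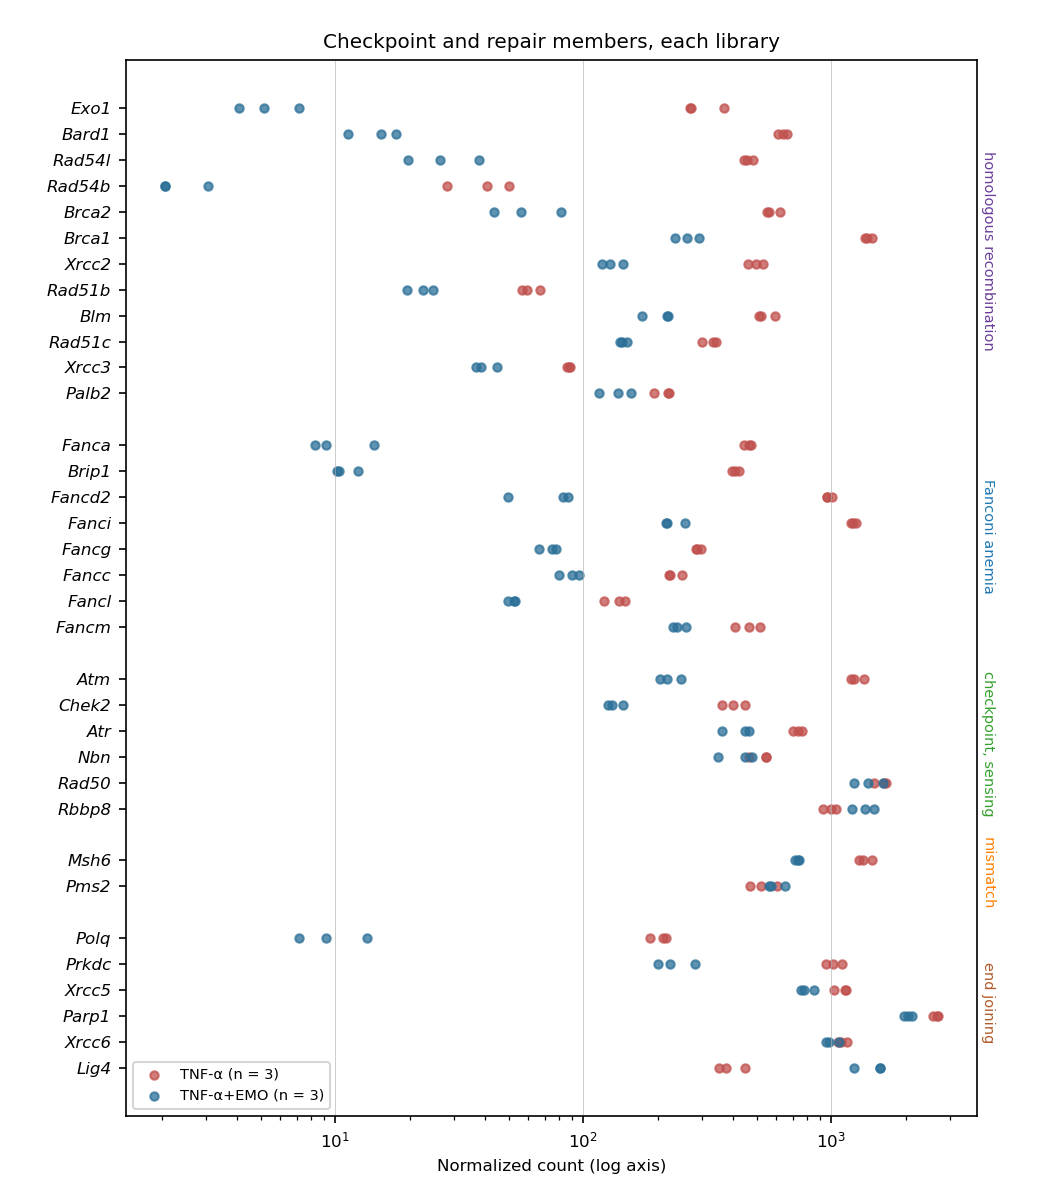
Normalized count (log axis) of each of the 34 members in each library, with 3 TNF-α and 3 TNF-α+EMO libraries as points and genes grouped by class. The groups lie apart in the 12 recombination and 8 Fanconi anemia genes, overlap in Rad50, Nbn, Pms2 and Xrcc6, and are reversed in order in Lig4 and Rbbp8.

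Among genes of homologous recombination, all 12 members were lower with EMO, 11 of them past a log2 fold change of -1 and 6 past -2. The median log2 fold change of the class was -2.17. The steepest decreases were in Exo1, Bard1 and Rad54l, and the smallest was in Palb2.

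Exo1 (chromosome 13, 93939022 to 93960342, Rnor_6.0), an exonuclease that extends the single-stranded tails at a break, had 275, 278 and 381 counts under TNF-α alone and 5, 4 and 7 with EMO. Normalized counts (scaled for library size) fell 54.4-fold from 304 ± 58.2 to 5.46 ± 1.54 (SD, n = 3 each, log2 fold change -5.77, SE 0.25, adjusted p = 3.4e-09). Bard1 (chromosome 9, 78294834 to 78369031), the partner without which Brca1 is unstable, had 622, 656 and 682 counts against 17, 15 and 11. It fell 43.1-fold, from 638 ± 27.2 to 14.7 ± 3.21 normalized counts (log2 fold change -5.43, SE 0.15, adjusted p = 1e-10). Rad54l (chromosome 5, 134948512 to 134978125), a motor protein that acts in strand invasion, had 453, 469 and 497 counts against 19, 37 and 26 (log2 fold change -4.04, SE 0.19, adjusted p = 6.3e-09). In each of these genes the lowest TNF-α library lay far above the highest TNF-α+EMO library. Rad54l overlaps Lrrc41, which reached 2882 counts, and without a stated strand setting their reads may not be fully separated.

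The Brca proteins and the factor that joins them differed in the size of their decrease. Brca1 (chromosome 10, 89394803 to 89454681) had 1399, 1499 and 1425 counts under TNF-α alone and 255, 286 and 231 with EMO (log2 fold change -2.42, SE 0.09, adjusted p = 1.2e-09). Brca2 (chromosome 12, 504007 to 544748), which acts at the resected single-stranded DNA, had 563, 638 and 576 counts against 79, 55 and 43 (log2 fold change -3.26, SE 0.18, adjusted p = 3e-08). Palb2, which bridges Brca1 and Brca2, had 196, 225 and 227 counts against 151, 135 and 114 (log2 fold change -0.63, SE 0.15, adjusted p = 0.0028). All 3 had groups that did not overlap, and Palb2 was the single recombination member inside the fold threshold.

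Xrcc2, Rad51b, Rad51c and Xrcc3, which act together in the strand exchange step, had smaller fold changes than Brca2. Xrcc2 fell from a mean of 497 to 130 normalized counts (log2 fold change -1.93), Rad51b from 60.9 to 22.2 (-1.45), Rad51c from 326 to 144 (-1.17) and Xrcc3 from 87.3 to 40.3 (-1.11). Blm, a helicase that untangles recombination intermediates, fell from 542 to 203 (-1.42). Their adjusted p lay between 4.1e-08 for Xrcc2 and 0.00044 for Xrcc3. The annotated length of Rad51b, 762 bases, is short, and Xrcc3 overlaps Klc1, which reached 2553 counts. Rad54b, a relative of Rad54l, had 51, 29 and 42 counts under TNF-α alone and 2, 2 and 3 with EMO. Its totals of 122 and 7 counts, scaled for library size, gave a ratio of 16.6 with a 95% interval of 7.83 to 42.2 that covers counting error only.

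The promoter of Bard1 is shown because it is the most strongly lowered member whose promoter holds letters that E2F factors are known to bind. It is the 250 bases upstream of the start in RefSeq's GRCr8 annotation, chr9:80143756-80144005 on the minus strand, written 5′ to 3′ along the gene. The capitals mark the E2F-type match, whose first letter lies 205 bases before the start.
Bard1: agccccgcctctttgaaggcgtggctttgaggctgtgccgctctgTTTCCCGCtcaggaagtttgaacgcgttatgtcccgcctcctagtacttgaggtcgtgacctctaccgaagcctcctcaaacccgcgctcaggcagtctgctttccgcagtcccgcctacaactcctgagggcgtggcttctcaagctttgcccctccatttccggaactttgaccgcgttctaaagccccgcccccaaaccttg

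The same holds for the upstream bases of Fancc (chr17:1686839-1687088, plus strand, match 29 bases before the start) and Atm (chr8:62828630-62828879, minus strand, match 239 bases before the start), a Fanconi anemia and a checkpoint gene that also fell. In both, the match reads on the opposite strand.
Fancc: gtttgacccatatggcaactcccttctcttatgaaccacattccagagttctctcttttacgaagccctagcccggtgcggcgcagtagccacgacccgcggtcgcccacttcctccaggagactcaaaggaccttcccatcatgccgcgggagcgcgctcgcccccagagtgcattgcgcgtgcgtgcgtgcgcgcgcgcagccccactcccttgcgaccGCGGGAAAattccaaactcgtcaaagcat
Atm: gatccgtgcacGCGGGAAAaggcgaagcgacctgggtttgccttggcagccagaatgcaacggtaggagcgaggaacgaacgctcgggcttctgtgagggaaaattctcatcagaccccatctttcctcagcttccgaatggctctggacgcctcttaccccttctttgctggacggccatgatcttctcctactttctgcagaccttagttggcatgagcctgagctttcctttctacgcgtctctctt

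The letters searched were TTTGGCGC, TTTCGCGC, TTTCCCGC and TTTGCCGC on either strand, in windows from 250 bases before to 50 after the start. Of the 28 members with a RefSeq promoter, 6 held a match (21.4%), which were Bard1, Fancd2, Atm, Fancl, Fancc and Msh6, against 618 of 27457 promoters overall (2.25%) and 389 of 9200 promoters of tested genes (4.23%). Members with a match had a median log2 fold change of -1.94 (n = 6, range -5.43 to -0.91), and members without one had -1.14 (n = 22, range -5.77 to 1.90). These ranges overlapped, Exo1 with the steepest decrease held no match, and the difference in medians was not tested. Among tested genes that fell past a log2 fold change of -2, 65 of 1459 promoters held a match (4.46%). The cell cycle homology letters TTTGAA or TTCGAA were in 25% of member promoters and 13.5% of those of tested genes, CCAAT in 46.4% and 38.5%, and GGGCGG in 67.9% and 63.6%. A match is a run of letters, and binding was not measured. Rad54b, Xrcc2, Blm, Chek2, Nbn and Prkdc were not matched to a promoter.

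In the Fanconi anemia class all 8 members were lower with EMO, 7 past a log2 fold change of -1 and 4 past -2, with a median of -2.21. The pathway runs from a core complex, which acts as a ubiquitin ligase, to the Fanci and Fancd2 pair that it modifies and to effectors such as the helicase Brip1.

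In the core complex, Fanca (chromosome 19, 56067548 to 56126063), a scaffold subunit, had 483, 477 and 455 counts under TNF-α alone and 8, 9 and 14 with EMO. Normalized counts fell from 461 ± 15.7 to 10.6 ± 3.23 (log2 fold change -5.43, SE 0.18, adjusted p = 4.2e-10), and Fanca overlaps genes with up to 402 counts. The other core members had smaller fold changes. Fancg fell from a mean of 291 to 72.8 normalized counts (log2 fold change -2.0), Fancc from 232 to 88.4 (-1.39), and Fancl, the ligase subunit, from 136 to 51.9 (-1.39). Fancl overlaps Vrk2, which reached 530 counts. Fancm, the translocase that brings the complex to DNA, fell from 464 to 242 (-0.94) and was the single member of the class inside the fold threshold.

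Fancd2 (chromosome 4, 145489869 to 145551479) had 1025, 988 and 982 counts under TNF-α alone and 80, 85 and 49 with EMO (log2 fold change -3.74, SE 0.16, adjusted p = 3.2e-09). Fanci (chromosome 1, 141120166 to 141172483), which forms a clamp with it, had 1220, 1294 and 1254 counts against 250, 210 and 213 (log2 fold change -2.42, SE 0.09, adjusted p = 1.2e-09). Brip1 (chromosome 10, 73507100 to 73629581) had 417, 437 and 409 counts against 10, 12 and 10, and fell 37.2-fold (log2 fold change -5.22, SE 0.16, adjusted p = 2e-10). The TNF-α+EMO libraries of Fancd2 ranged from 49 to 85 counts, and in none of these genes did a TNF-α+EMO library come near a TNF-α library.

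Checkpoint and break-sensing genes were split. Of the 6 members tested, Atm, Chek2 and Atr were lower with EMO, Rbbp8 was higher, and Rad50 and Nbn did not pass the test. Over all genes tested, 41.4% were lower and 39.4% higher, so 3 of 6 lower was near the share of all genes. Past a log2 fold change of -1, Atm and Chek2 were the 2 of 6 that were lower, near the 27.8% of all genes. The median log2 fold change was -0.54. Atm (chromosome 8, 58015940 to 58120045), the kinase activated by breaks, had 1256, 1388 and 1235 counts under TNF-α alone and 239, 213 and 200 with EMO. Its log2 fold change was -2.50 (SE 0.10, adjusted p = 1.2e-09). Chek2 (chromosome 12, 51845796 to 51877624), which Atm phosphorylates, had 458, 373 and 414 counts against 141, 127 and 124 (log2 fold change -1.60, SE 0.12, adjusted p = 3.9e-07). Atr (chromosome 8, 103673411 to 103770947), the kinase for stalled forks, had 715, 755 and 781 counts against 451, 437 and 355 (log2 fold change -0.79, SE 0.10, adjusted p = 3e-05). In the TNF-α group Atm and Atr had levels of 5.96 and 4.87 CPM per kb (counts scaled by library size and divided by gene length), and with EMO they had 1.05 and 2.82, so their order reversed.

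Rad50 and Nbn form, with Mre11, the complex that holds broken ends and activates Atm. Rad50 (chromosome 10, 39001498 to 39054142) had 1519, 1700 and 1671 counts under TNF-α alone and 1562, 1370 and 1209 with EMO (log2 fold change -0.17, SE 0.09, adjusted p = 0.12). Nbn (chromosome 5, 29622281 to 29656864) had 558, 558 and 476 counts against 433, 469 and 344 (log2 fold change -0.28, SE 0.12, adjusted p = 0.053). Groups overlapped in both genes after scaling. Both calls depended on the setting, as Nbn passed the test in 10 and Rad50 in 4 of 14 alternative fits. Mre11 is no member and was looked up after these values were seen. Its normalized counts fell from 885 ± 27.4 to 405 ± 5.23 (log2 fold change -1.13, SE 0.08, adjusted p = 1.1e-07). Rbbp8 (chromosome 18, 3162543 to 3227688), the factor that works with this complex to start end trimming, had 1019, 1069 and 955 counts against 1446, 1331 and 1190. It rose 1.37-fold (log2 fold change 0.45, SE 0.09, adjusted p = 0.00061), and every TNF-α+EMO library was above every TNF-α library.

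Of the 2 mismatch repair members, Msh6 (chromosome 6, 11644578 to 11662499), a subunit of the complex that recognises mismatches, had 1491, 1325 and 1381 counts under TNF-α alone and 695, 716 and 725 with EMO. Normalized counts fell from 1367 ± 87.2 to 729 ± 11.2 (log2 fold change -0.91, SE 0.07, adjusted p = 5.5e-07). Msh6 overlaps Fbxo11, which reached 774 counts. Pms2 (chromosome 12, 12714394 to 12738641), a nuclease subunit that acts after mismatch recognition, had 618, 484 and 533 counts against 631, 547 and 559, with overlapping groups (log2 fold change 0.16, SE 0.11, adjusted p = 0.20).

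End joining held both the strongest increase among the members and steep decreases. Of its 6 members, 4 were lower with EMO, 1 was higher and 1 did not pass the test, and the median log2 fold change was -0.42. The share lower was 66.7%, against 41.4% of all genes tested. Past a log2 fold change of -1 it was 33.3%, near the 27.8% of all genes. Lig4 (chromosome 16, 85331866 to 85337769), the ligase that seals the break, had 359, 458 and 385 counts under TNF-α alone and 1528, 1538 and 1215 with EMO. It rose 3.74-fold, from 391 ± 49.3 to 1462 ± 195 normalized counts (log2 fold change 1.90, SE 0.12, adjusted p = 8.2e-08). Its level per length moved from place 18 to place 2 among the 34 members. Prkdc (chromosome 11, 89293696 to 89510871), the kinase that Ku recruits to broken ends, had 1037, 1130 and 977 counts against 273, 219 and 197 (log2 fold change -2.12, SE 0.12, adjusted p = 3.2e-08). Polq (chromosome 11, 66585881 to 66695353), the polymerase of the alternative route that joins ends through short homologies, had 219, 214 and 191 counts against 13, 9 and 7 (log2 fold change -4.34, SE 0.24, adjusted p = 2.3e-08).

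The Ku subunits differed little between the groups. Xrcc6 (chromosome 7, 123259761 to 123280612) had 1180, 1121 and 1094 counts under TNF-α alone and 945, 1049 and 936 with EMO, with overlapping groups (log2 fold change -0.14, SE 0.08, adjusted p = 0.099). Xrcc6 passed the test in 4 of 14 alternative fits. Its partner Xrcc5 fell from 1103 to 797 normalized counts (log2 fold change -0.47, adjusted p = 0.00024). Parp1, which senses strand breaks and takes part in the alternative route, fell from 2641 to 2042 (log2 fold change -0.37, adjusted p = 0.00013) and had the highest level per length of all members in both groups, 39.6 and 30.6 CPM per kb.

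**Figure D2:**
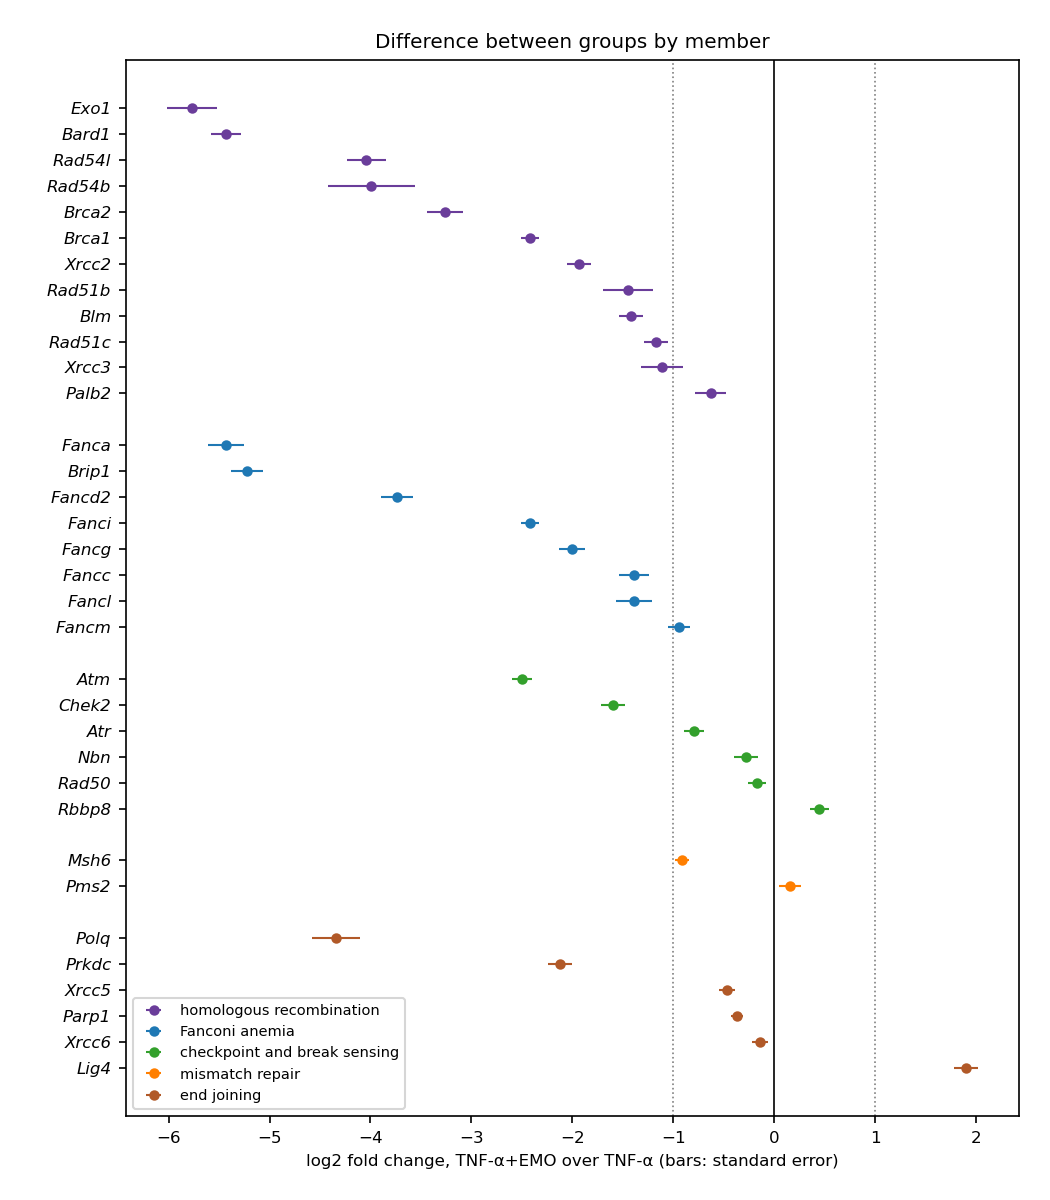
Log2 fold change of TNF-α+EMO over TNF-α for each of the 34 members, with bars of 1 standard error, grouped by class. Values run from -5.77 in Exo1 to 1.90 in Lig4, and the recombination and Fanconi anemia genes all lie below 0.

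Levels per length were summed within each class to see how the makeup of the members changed. The 12 recombination genes summed to 78, 78.8 and 82.6 CPM per kb with TNF-α alone and to 18.5, 19.2 and 16.6 with EMO. The 8 Fanconi anemia genes summed to 66, 65.8 and 65.3 against 13.8, 12.7 and 12.3. End joining genes summed to 106, 108 and 107 against 103, 109 and 96.4. These groups overlapped, with Lig4 higher and the other 5 members at lower means. Checkpoint genes summed to 68.4, 69.3 and 65.9 against 60.8, 56.3 and 48.4, and mismatch repair genes to 29.8, 25.1 and 26.6 against 21.6, 20 and 20.3. As a share of the sum over all members, recombination genes went from 22.4 to 23.8% down to 8.50 to 8.84%, Fanconi anemia genes from 18.8 to 19.0% down to 5.83 to 6.36%, and end joining genes from 30.5 to 31.1% up to 47.3 to 50.2%. These sums rest on annotated gene lengths and are a description, with no test.

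**Figure D3:**
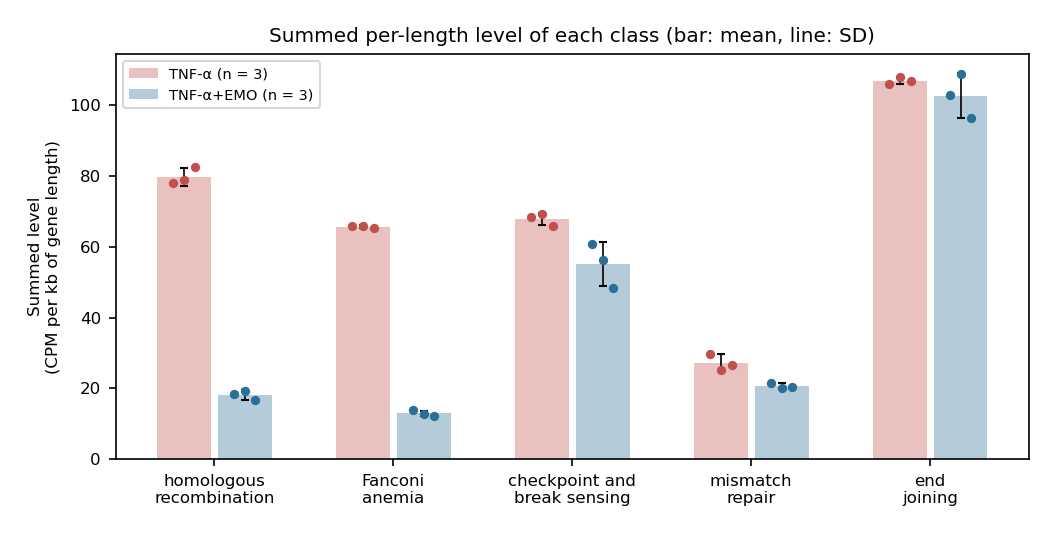
Summed level of each class in each library, in CPM per kb of gene length, with 3 points per group, bars at the mean and lines of 1 SD. Recombination and Fanconi anemia sums lie far apart between the groups, whereas the end joining sums overlap at 106 to 108 against 96.4 to 109.

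In several pairs of members with related roles, not all of them in 1 complex or step, the ratio of the transcripts differed between the groups. The pairs were chosen after the values were seen, and ratios of levels per length are given as a description. Brca1 over Bard1 was 1.17, 1.19 and 1.09 with TNF-α alone and 7.83, 9.95 and 11 with EMO. Palb2 over Brca2 went from 0.974, 0.986 and 1.10 to 5.35, 6.86 and 7.41. Fanci over Fancd2 was 1.30, 1.43 and 1.39 against 3.41, 2.69 and 4.74. In these 3 pairs the ratio was higher in every TNF-α+EMO library than in any TNF-α library. Lig4 over Prkdc was 1.39, 1.62 and 1.58 against 22.4, 28.1 and 24.7, and Atr over Atm 0.802, 0.766 and 0.891 against 2.66, 2.89 and 2.50. Rbbp8 over Exo1, which act early and late in end trimming, went from 2.64, 2.74 and 1.78 to 206, 237 and 121. By contrast, Rad50 over Nbn overlapped, at 1.41, 1.58 and 1.82 against 1.87, 1.51 and 1.82. Xrcc6 over Xrcc5 was 1.31, 1.11 and 1.10 against 1.46, 1.47 and 1.47, and Rad51c over Rad51b 1.63, 1.72 and 1.88 against 1.96, 2.06 and 2.36, which are small shifts beside those above.

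**Figure D4:**
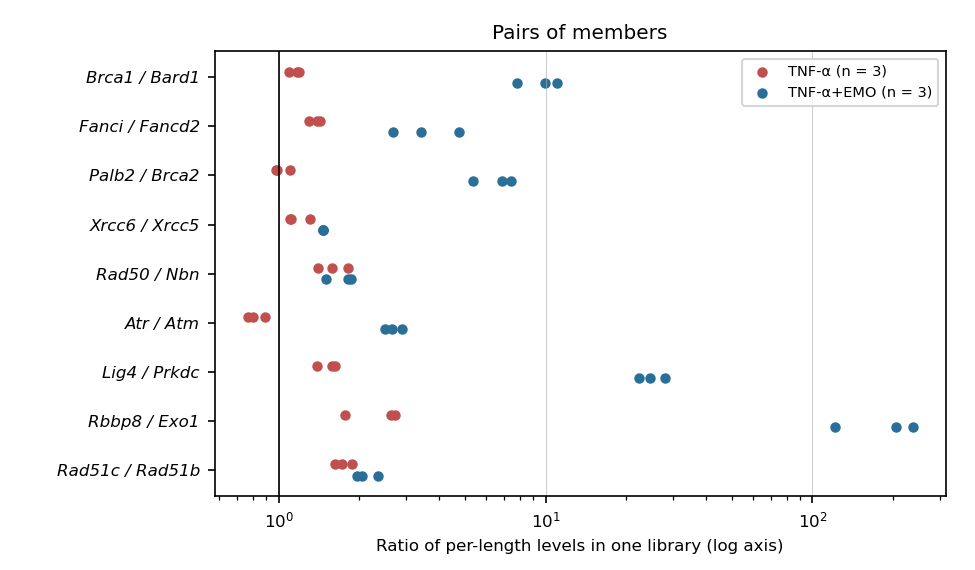
Ratio of levels per length of gene pairs in each library (log axis), with 3 points per group. Rbbp8 over Exo1 and Lig4 over Prkdc lie furthest apart between the groups, and Rad50 over Nbn overlaps.

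The TNF-α+EMO libraries were not equal for these genes. Replicate 3 had the lowest normalized count of its group in 22 of the 34 members and replicate 1 the highest in 17. Their median log2 deviations from the group mean were -0.084 and 0.096, against -0.020 to 0.015 in the TNF-α libraries. These deviations are small beside most of the fold changes, but are of the order of those of Rad50, Nbn and Xrcc6.

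Repair genes outside the members were split in direction. Of 139 other repair and checkpoint genes tested, 53 were lower (38.1%), 64 higher and 22 not called, with a median log2 fold change of 0.12. All genes tested were split as well, with 41.4% lower and 39.4% higher. Past a log2 fold change of 1 in size, 29 were lower (20.9%) and 22 higher (15.8%), against 27.8% and 19.5% of all genes. The share that was lower was 82.4% among the members, and the difference between these shares was not tested.

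Some of these other genes showed decreases as steep as those of the members. Of 31 other recombination genes, 12 were lower (38.7%; 41.4% of all genes), 14 higher and 5 not called (median 0.25). The nuclease subunit Eme1 fell from 219 ± 17.4 to 11.3 ± 7.37 normalized counts (log2 fold change -4.27, adjusted p = 5.6e-07). Rmi2, a partner of Blm, had 231, 193 and 153 counts under TNF-α alone and 0, 0 and 2 with EMO. Of 13 other Fanconi anemia genes, 7 were lower (53.8%) and 5 higher. Ube2t, the conjugating enzyme of the core complex, had a log2 fold change of -4.24 (adjusted p = 4e-07), Fancb of -3.49 and Rfwd3 of -1.48. Of 23 other checkpoint genes, 14 were lower (60.9%) and 7 higher. Clspn, the adaptor through which Atr activates its effector kinase, had 385, 368 and 418 counts against 1, 1 and 0, Timeless had a log2 fold change of -3.11 and Topbp1, an activator of Atr, of -2.16. Of 11 other mismatch repair genes, 9 were lower (81.8%) and 2 higher. Lig1, a DNA ligase of replication, had a log2 fold change of -1.69 (adjusted p = 4.6e-07) and the clamp loader subunit Rfc5 had -1.59.

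Of 17 other end joining genes, 11 were higher, 1 was lower and 5 were not called (median 0.48), where 39.4% of all genes tested were higher. Past a log2 fold change of 1, 4 of the 17 were higher (23.5%), near the 19.5% of all genes. Nhej1, which aligns ends for Lig4, had 49, 59 and 55 counts under TNF-α alone and 270, 320 and 305 with EMO (log2 fold change 2.52, SE 0.15, adjusted p = 3.5e-08). Shld2 and Mad2l2, of the shieldin complex that protects ends from trimming, had log2 fold changes of 1.72 and 1.5 (adjusted p = 1.3e-07 and 2.5e-08). Xrcc4, the partner that stabilises Lig4, had 202, 206 and 206 counts against 282, 222 and 221, and its log2 fold change of 0.31 did not pass the test (adjusted p = 0.052).

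Routes that act on lesions of 1 strand were mixed, apart from nucleotide excision repair, where most genes were higher. Of 18 nucleotide excision repair genes, 13 were higher, 1 was lower and 4 were not called (median 0.54), and 6 were higher past a log2 fold change of 1 (33.3%), against 39.4% and 19.5% higher over all genes. The largest log2 fold changes there were 1.47 in Gtf2h5 and 1.11 in Gtf2h1, subunits of the factor that opens DNA at a lesion, and 1.42 in Ddb2, which recognises ultraviolet damage. Of 14 base excision repair genes, 7 were higher and 5 lower (35.7%; 41.4% of all genes), with a median of 0.17. The uracil glycosylases had opposite signs, Smug1 at a log2 fold change of 2.12 and Ung at -1.08, and the endonuclease Apex1 was at 1.43. The glycosylase Neil3, named after its values were seen, had the steepest decrease of that list, with 92, 73 and 103 counts under TNF-α alone and 2, 1 and 0 with EMO (adjusted p = 4.2e-07). Neil3 was near 0 counts with EMO and was tested through its TNF-α libraries alone, so it could only be called lower. Of 9 translesion synthesis genes, 3 were higher and 3 lower (33.3%; median -0.01), the latter being Primpol at -2.13, Hltf at -1.22 and the polymerase subunit Rev3l at -1.03. Of the 3 direct reversal genes, Mgmt, which removes alkyl groups from guanine, rose from 271 ± 11.4 to 3577 ± 107 normalized counts (log2 fold change 3.72, adjusted p = 7.3e-12), Alkbh3 rose by 2.53 and Alkbh2 fell by 1.65 on the log2 scale.

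Genes of the cell cycle differed between the groups as well, and their counts stand beside 41.4% lower and 39.4% higher over all genes tested. Of 24 S phase replication genes, 23 were lower with EMO and 1 was not called (median log2 fold change -2.57), with the origin licensing factor Cdc6 at 937, 937 and 941 counts against 3, 7 and 2, Gins1 at a log2 fold change of -4.60 and Orc1 at -3.90. All 17 mitotic genes were lower (median -5.58), among them Top2a, at 8077, 8767 and 8519 counts against 20, 18 and 8, Cenpf at a log2 fold change of -9.48 and Plk1 at -7.18. Of 14 E2F and pocket protein genes, 10 were lower and 2 higher (median -1.83), with E2f8 at -6.66, E2f7 at -5.50, Mybl2 at -3.48 and Rb1 at 1.89. Of 18 p53 target genes, 16 were higher and 1 lower (median 2.29), with the growth arrest genes Gadd45a at 5.62 and Cdkn1a at 3.81, and Sesn2 at 4.46. The part of these cell cycle differences in the levels of the repair genes was not tested. All gene lists share the same 6 libraries, so their values stand side by side and are not independent of each other.

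**Figure D5:**
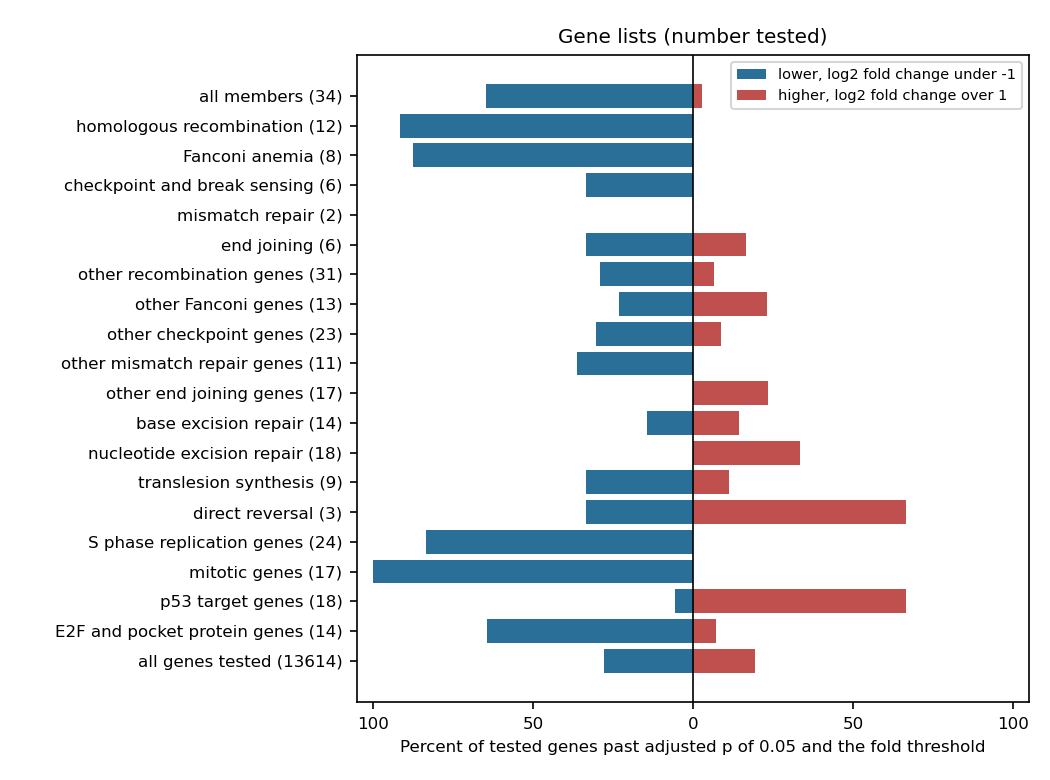
Percent of the tested genes in each list that passed an adjusted p of 0.05 with a log2 fold change under -1 (bars to the left) or over 1 (bars to the right), with the number tested in parentheses. The bars for recombination (91.7%) and Fanconi anemia (87.5%) members reach as far left as those of S phase genes, while those for all genes tested reach 27.8% and 19.5%.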

How the data were processed

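Poly(A)-selected, paired-end RNA-seq libraries of rat RA-FLS were examined. The submitters' processing notes name FastQC, Trimmomatic, HISAT2 and Rnor_6.0, while the counting program, annotation release and strand setting are not given in the sources used here. The authors deposited raw counts per gene, which were the values used, and FPKM values, which were used for no result. The deposited table of comparisons (fold changes and p-values of the same groups) was not used. A gene was tested if 3 or more libraries held 10 or more of its counts (13614 of 34156). Genes that reached 10 counts in the TNF-α libraries alone, such as Exo1, Rad54b, Rmi2, Clspn and Neil3, could only be called lower with EMO. TMM scaling and a robust quasi-likelihood F test were run in edgeR 4.0.16 (R 4.3.3), and p was adjusted across every gene tested (Benjamini-Hochberg). The standard error is the log2 fold change divided by the square root of F. Normalized counts are scaled to the mean effective library size, and levels per length are TMM-scaled CPM, computed from the counts, per kb of deposited gene length. The test was tried on simulated data first.

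With 3 libraries against 3, an exact permutation test cannot go below p = 0.1. A count of up to 3 in every library of a group was treated as the floor. List medians were the same with such genes set to that floor. Intervals and floors cover counting error only. The members and gene lists were chosen with earlier results of these data known. Values in every library are given for the 3 members of each class with the largest change and for those not called, and for Brca1, Brca2, Palb2, Rad54b, Fanci and Rbbp8, added after seeing the data. Of other lists, the 3 genes with the largest change, a mean count of 50 or more and separate groups were named, and further ones were chosen after their values were seen. The values of some of these genes are not reported here. Promoters come from RefSeq (GRCr8), matched by symbol, and no coordinate was converted between builds. The alternatives were other scalings, filters and thresholds, DESeq2 1.42.0, limma-voom (limma 3.58.1), a replicate block and leaving out each library.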

Additional observations from a re-analysis of the deposited data

How the results depend on the processing

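Depth limits Rad54b, Exo1, Fanca and Polq, which had few counts with EMO, and the single contrast of 3 against 3 libraries has no second experiment behind it. Of the 34 members, 31 stayed on the same side of the threshold in every alternative fit that tested them, which was 14 fits for most, 13 for Fanca and Polq and 10 for Exo1 and Rad54b, and none changed direction with a call. Rad50 was called lower in 4 of 14 (log2 fold change -0.29 to -0.06, adjusted p 0.015 to 0.45), Nbn in 10 of 14 (-0.43 to -0.14, 0.014 to 0.18) and Xrcc6 in 4 of 14 (-0.26 to -0.09, 0.0094 to 0.26). With a library left out, Rad50 was called without TNF-α replicate 1 (-0.29) or TNF-α+EMO replicate 1 (-0.25). Nbn was called without TNF-α replicate 3 (-0.43) or TNF-α+EMO replicate 2 (-0.35), and Xrcc6 without TNF-α replicate 3 (-0.24). On all 6 libraries, Nbn was called in every alternative fit (adjusted p 0.014 to 0.049) but not in the main fit (0.053). Rad50 and Xrcc6 were called there with library totals only and with 10 counts required in all 6 libraries, and Xrcc6 also with upper quartile scaling. The cause was not tested.

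With a log2 fold change beyond 2 in size, 13 members were lower and 0 higher by edgeR, and also 0 at an unadjusted p under 0.05, as the highest value was 1.90 (1.89 with DESeq2). That value, of Lig4, ranged from 1.76 to 2.03 over the 14 alternative fits, so its place below 2 depended on the fit. Scaling by library totals only moved the median of all genes to -0.12, that of the members to -1.55, of mismatch repair to -0.49 and of end joining to -0.53. With 10 counts required in all 6 libraries, 27 of 30 members were lower, 19 past the fold threshold, 10 recombination genes were left and their median was -1.76. Leaving out each library in turn gave medians of -1.52 to -1.38 for the members, -2.23 to -1.75 for recombination, where dropping a TNF-α library left fewer genes to test, -2.29 to -2.13 for Fanconi anemia, -0.63 to -0.40 for checkpoint genes, -0.51 to -0.33 for mismatch repair and -0.51 to -0.38 for end joining. The same fits gave 26 to 29 lower and 2 higher members.

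No pairing of libraries by replicate number was seen, with correlations of deviations of 0.019, -0.0068 and 0.068. Those between unlike numbers ran from -0.070 to 0.053. Such correlations cannot tell whether libraries shared a culture or batch. With the replicate number as a block, 29 members were lower and 2 higher, 22 and 1 past the fold threshold, and the median was -1.44.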
